A study of Mus musculus with 15 samples.

Results

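Alpha granules are the most numerous secretory granules of platelets, and they store the proteins that platelets release when a vessel is injured. The 10 genes described here encode cargo of these granules: the chemokines Ppbp and Pf4, the adhesive and clotting proteins Vwf, Thbs1, Mmrn1 and F13a1, the membrane receptor Selp, the secreted chaperone Clu, the growth factor Tgfb1 and the matrix protein Sparc. They were taken by symbol from a table of 55536 genes, and each symbol matched 1 row. Whole blood of 15 male C57Bl/6 mice aged 10 months was profiled by bulk RNA sequencing, with 1 library per animal. For 8 animals the mother had drunk water with 3.07 µM tributyltin (TBT), an organotin compound, a daily 0.5 mg per kg body weight, until weaning, and the other 7 animals were vehicle controls. Among the vehicle controls, vehicle 3 carries the label of a liver tumor. Animals are named by group and by the number in their title, and that number was not used to pair animals in the main tests.

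Platelets have no nucleus. Their RNA comes from megakaryocytes, the bone marrow cells that shed them, and cargo is either made by the megakaryocyte or taken up from plasma. On activation the granule membrane fuses with the surface, which exposes P-selectin (Selp) and releases the soluble cargo into the clot. Several of these genes are also used outside the platelet lineage: Vwf and Selp in endothelium, F13a1 and Tgfb1 in monocytes and macrophages, and Sparc in fibroblasts and other matrix-producing cells.

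Libraries held 6.03 M to 11.99 M counts. Values are CPM (counts per M counts) on library sizes scaled by TMM, a trimmed mean of ratios between libraries, unless CPM of all counts is stated. TBT 2 and TBT 8 stood apart: their scaling factors were 0.404 and 0.528, against 0.736 to 1.58 in the other 13 libraries, and a factor below 1 raises the scaled CPM of every gene in that library. Haemoglobin transcripts took 50.8% and 44.5% of their counts, against 28.8% to 44.1% in the others. In vehicle 6 the small RNA gene Gm23935 took 14.0% of all counts.

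The platelet source of the libraries was checked with 15 other platelet genes, such as the glycoproteins Gp9 and Itga2b, none of them a cargo gene. All 15 were detected in every library, and their summed level ran from 2407 to 6878 CPM of all counts in TBT and from 3160 to 5661 in vehicle. The 10 cargo genes together took 0.703 ± 0.216% of all counts in TBT and 0.748 ± 0.129% in vehicle (SD, n = 8 and 7). In whole blood, fewer platelets and less RNA per platelet cannot be told apart.

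Per kb of annotated exon, the cargo levels spanned over 4 orders of magnitude. Ppbp was the highest, with a mean of 3220 scaled CPM per kb in TBT and 3037 in vehicle, and it exceeded the next gene, Thbs1, in 15 of 15 libraries. Thbs1 averaged 462 in TBT and 352 in vehicle, and Pf4 averaged 338 in TBT and 345 in vehicle. The order of Thbs1 and Pf4 held in 11 of 15 libraries, so these neighbours did not separate beyond their spread. Clu came next with means of 140 in TBT and 138 in vehicle, then Mmrn1 with 94.3 in TBT and 86.0 in vehicle. Tgfb1, Vwf and F13a1 lay together between means of 33.7 and 47.8. Tgfb1 was above Vwf in 12 of 15 libraries, and Vwf above F13a1 in 10 of 15. Selp averaged 7.10 in TBT and 6.05 in vehicle, below F13a1 in all 15 libraries. Sparc was close to absence, with means of 0.123 in TBT and 0.198 in vehicle.

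**Figure D1:**
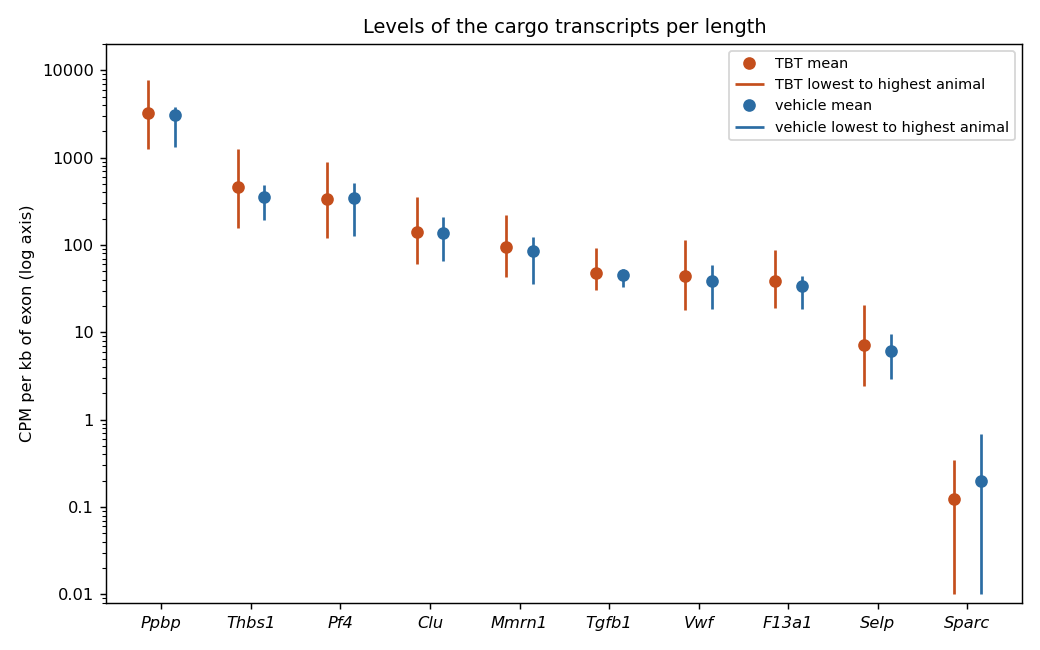
Level of each cargo transcript in scaled CPM per kb of exon (log axis) in TBT (n = 8, left of each pair) and vehicle (n = 7); points are group means and lines run from the lowest to the highest animal. Ppbp leads at 3220 in TBT and 3037 in vehicle, and the lines of Sparc are cut at the foot of the axis because each group has an animal at 0.

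Ppbp (ENSMUSG00000029372) encodes pro-platelet basic protein, the precursor of the neutrophil attractant CXCL7, and Pf4 (ENSMUSG00000029373) encodes platelet factor 4, a heparin-binding chemokine. The genes are neighbours on the plus strand of chromosome 5 in GRCm38: Ppbp at chr5:90768518-90770063 and Pf4 at chr5:90772435-90773383. The 250 bases before the RefSeq start of each are shown. Those of Mmrn1 are shown too, the 1 window of 8 with both kinds of the letters marked below, beside 2.96% of all promoter windows. The sequences are RefSeq's on GRCm38.p6, 5′ to 3′, from chr5:90768268-90768517, chr5:90772185-90772434 and chr6:60944067-60944316, all on the plus strand. The RefSeq start used for Mmrn1 lies inside the GENCODE gene given further down, which begins upstream of it. Capitals mark matches on either strand to AGATAA or TGATAA, core letters of sites for GATA factors, or to GGAAGT, core letters of sites for ETS factors; ACTTCC is GGAAGT on the other strand.
Ppbp: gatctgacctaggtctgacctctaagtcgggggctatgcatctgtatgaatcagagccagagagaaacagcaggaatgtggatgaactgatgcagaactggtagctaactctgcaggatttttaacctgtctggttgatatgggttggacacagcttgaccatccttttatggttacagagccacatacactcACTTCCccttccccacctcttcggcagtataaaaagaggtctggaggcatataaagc
Pf4: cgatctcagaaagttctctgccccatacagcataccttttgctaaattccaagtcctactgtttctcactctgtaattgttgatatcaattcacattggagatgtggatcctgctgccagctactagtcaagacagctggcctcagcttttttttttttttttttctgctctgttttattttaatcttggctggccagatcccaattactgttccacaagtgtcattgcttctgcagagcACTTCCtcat
Mmrn1: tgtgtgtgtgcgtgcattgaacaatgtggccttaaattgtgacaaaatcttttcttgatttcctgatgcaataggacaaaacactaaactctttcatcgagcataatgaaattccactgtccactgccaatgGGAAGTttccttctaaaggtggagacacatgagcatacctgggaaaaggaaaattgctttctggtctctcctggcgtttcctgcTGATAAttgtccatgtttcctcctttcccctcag

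The ETS letters lay 57 to 52 bases before the start of Ppbp, 10 to 5 before that of Pf4 and 118 to 113 before that of Mmrn1, whose GATA letters lay 34 to 29 before the same RefSeq start. Promoter windows were matched for 7 of the 10 genes, in 8 windows because F13a1 has 2 starts; Vwf, Thbs1 and Clu had none. GGAAGT was found in 4 of the 8 windows, the fourth being 1 of the windows of F13a1, and in 19.7% of all 32851 promoter windows of the same length. AGATAA or TGATAA was found in 1 of the 8, against 16.6% of all. The windows of Selp, Tgfb1 and Sparc, which held no match, and those of F13a1 are not shown. These matches describe letters only.

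In 6 of 8 TBT animals both chemokine transcripts were below the vehicle median, and in TBT 2 and TBT 8 they were far above it. Ppbp ran from 1345 over a median of 1946 to 8318 CPM in TBT, and from 1445 over a median of 3482 to 4095 CPM in vehicle. TBT 2 (8318) and TBT 8 (8225) were the highest of all 15 libraries, the other 6 TBT animals lay at 1345 to 2602, and 6 of the 7 vehicle animals lay at 3078 to 4095, with vehicle 3 at 1445. The group means were 3487 ± 2974 CPM in TBT and 3290 ± 896 in vehicle (SD, n = 8 and 7), and the log2 fold change was 0.08 (SE 0.46, edgeR adjusted p = 0.994). Pf4 showed the same shape: 85.9, 134 and 636 CPM as lowest, median and highest in TBT, and 92.5, 266 and 372 CPM in vehicle. Its log2 fold change was −0.03 (SE 0.46, edgeR adjusted p = 0.997). For both genes the groups overlapped. The count ratio of Ppbp to Pf4, which no scaling affects, was 14.9 ± 1.12 in TBT and 13.9 ± 2.47 in vehicle (SD, n = 8 and 7), with the lowest value, 9.37, in vehicle 6.

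The adhesive and clotting cargo followed the same animals. Vwf (ENSMUSG00000001930, chr6:125546774-125686679, plus strand) encodes von Willebrand factor, which tethers platelets to exposed collagen. It had 286, 359 and 1826 CPM as lowest, median and highest in TBT, and 298, 633 and 949 CPM in vehicle. Thbs1 (ENSMUSG00000040152, chr2:118111876-118127133, plus strand) encodes thrombospondin 1, a matricellular protein that binds CD36 and CD47 and can activate latent TGF-β. Its values were 943, 1642 and 7703 CPM in TBT, and 1161, 2219 and 2932 CPM in vehicle. Both genes were highest in TBT 2 and TBT 8 and, within vehicle, lowest in vehicle 3. The log2 fold changes were 0.18 for Vwf (SE 0.45, edgeR adjusted p = 0.988) and 0.39 for Thbs1 (SE 0.47, edgeR adjusted p = 0.964), with overlapping groups.

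Mmrn1 (ENSMUSG00000054641, chr6:60924976-60989378, plus strand) encodes multimerin 1, which in human platelets binds factor V in the granule. It ran from 251 over a median of 316 to 1304 CPM in TBT, and from 209 over a median of 517 to 716 CPM in vehicle. F13a1 (ENSMUSG00000039109, chr13:36867178-37050244, minus strand) encodes the A subunit of factor XIII, which crosslinks fibrin. Its lowest, median and highest values were 129, 167 and 598 CPM in TBT, and 123, 219 and 297 CPM in vehicle. Again TBT 2 and TBT 8 were the 2 highest libraries and the groups overlapped. The log2 fold changes were 0.13 for Mmrn1 (SE 0.41, edgeR adjusted p = 0.991) and 0.18 for F13a1 (SE 0.36, edgeR adjusted p = 0.979).

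Selp (ENSMUSG00000026580, chr1:164115264-164150026, plus strand), the receptor by which activated platelets bind leukocytes, was the least abundant of the 9 tested cargo transcripts and the most variable. It had 10.7, 15.3 and 91.8 CPM as lowest, median and highest in TBT, and 12.8, 24.8 and 42.8 CPM in vehicle. Its highest library was 8.57 times its lowest, the widest span among the 9 tested genes, and its log2 fold change was 0.19 (SE 0.50, edgeR adjusted p = 0.988). Exons of Selp, Thbs1 and F13a1 overlap annotated genes on the opposite strand, and whether counting used strand is not given in the sources used here, so reads of such partners may be included in their counts.

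Clu (ENSMUSG00000022037, chr14:65968483-65981547, plus strand) encodes clusterin, an extracellular chaperone and inhibitor of complement. It ran from 209 over a median of 253 to 1210 CPM in TBT, and from 225 over a median of 500 to 719 CPM in vehicle. The 6 TBT animals other than TBT 2 and TBT 8 were all under 321 CPM, and 6 of 7 vehicle animals were above 366. Tgfb1 (ENSMUSG00000002603, chr7:25687002-25705077, plus strand), the growth factor for which platelets are a major store, had the narrowest span. Its values were 153, 172 and 463 CPM in TBT, and 167, 245 and 265 CPM in vehicle. The log2 fold changes were 0.01 for Clu (SE 0.43, edgeR adjusted p = 0.999) and 0.08 for Tgfb1 (SE 0.27, edgeR adjusted p = 0.991).

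Sparc (ENSMUSG00000018593, chr11:55394500-55423183, minus strand) encodes osteonectin, a collagen-binding matrix protein found in alpha granules. It had 0 to 15 counts per library and 76 in all, and it was the 1 cargo gene that did not pass the filter on low counts. Its lowest, median and highest values were 0, 0.268 and 1.55 CPM of all counts in TBT, and 0, 0.407 and 2.49 in vehicle. TBT 5 and vehicle 5 had no count, which allows up to 0.318 and 0.289 CPM (3 counts; counting error only). The highest animals, TBT 1 with 15 counts and vehicle 7 with 15 counts, were also the highest of their groups in the summed level of 9 endothelial markers, at 41.9 CPM of all counts in TBT 1 and 22.2 in vehicle 7. TBT 7, next in TBT with 10 counts, had an endothelial sum of 9.77, near the TBT median of 9.59. The 6 fibroblast markers summed to 0.333 to 3.61 CPM of all counts in TBT and 1.21 to 3.80 in vehicle, and 1 to 6 of them were detected per library; TBT 1 was the highest TBT animal here too. The 6 hepatocyte markers summed to 742 CPM of all counts in TBT 1 (2.29 to 742 in TBT) and to 389 in vehicle 7 (4.90 to 782 in vehicle), with 4 to 6 of them detected per library. The part of these cells in the Sparc counts was not tested.

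**Figure D2:**
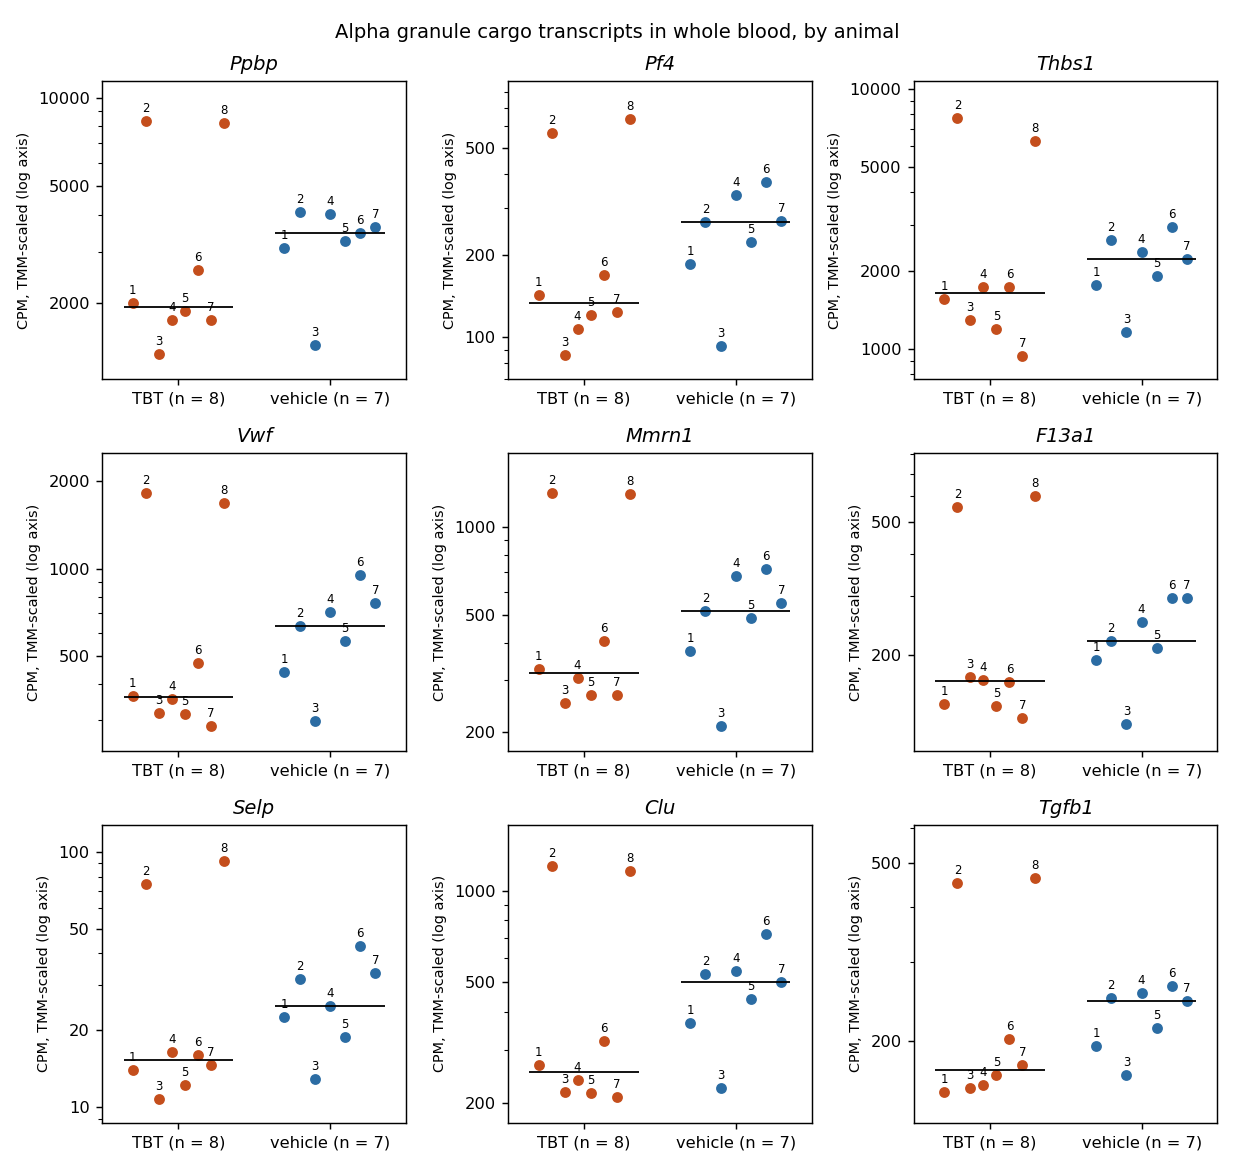
Scaled CPM (log axes) of the 9 tested cargo transcripts in each animal of TBT (n = 8, left) and vehicle (n = 7, right); numbers are the animals' numbers and bars are group medians. In every panel TBT 2 and TBT 8 are the 2 highest of 15 animals, the TBT median is below the vehicle median, and vehicle 3 is the lowest vehicle animal.

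No cargo gene passed the test between TBT and vehicle. Called at an adjusted p of at most 0.05 were 0 of 9 tested cargo genes, beside 0% of the 13364 tested genes (edgeR). At an unadjusted p under 0.05 it was 0 of 9 cargo genes, beside 6.33% of all tested genes. DESeq2 and limma-voom also called 0 of 9 at an adjusted p of at most 0.05, beside 13 genes in DESeq2 and 22 of 13364 in limma-voom. At an unadjusted p under 0.05 it was 0 of 9 in DESeq2, beside 1622 of all genes, with no filter on low counts. How many genes DESeq2 tested was not counted, so its numbers give no share. In limma-voom it was 4 of 9 (Ppbp, Pf4, Selp and Clu, all lower in TBT), beside 2669 of 13364 genes in either direction. Limma-voom gave TBT 2 and TBT 8 the smallest weights. The half-widths of the 95% intervals, not adjusted for the number of genes, were 0.56 (Tgfb1) to 1.07 (Selp) on the log2 scale. Differences of that size could be missed with these animals, and so could larger ones, because calls used adjusted p-values. The log2 fold change was above 0 for 8 of 9 cargo genes, beside 59.4% of all tested genes, with a median of 0.13 beside 0.05 over all. That sign rested on TBT 2 and TBT 8: without TBT 2 it was above 0 for 0 of 9, without TBT 8 for 1 of 9 (Thbs1), without vehicle 3 for 4 of 9, and without scaling factors for 1 of 9 (Thbs1). The groups were fully separated for 0 of 9 cargo genes, beside 0.112% of all tested genes.

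The spread within TBT came from TBT 2 and TBT 8. The coefficient of variation of scaled CPM ran from 55.7% (Tgfb1) to 104% (Selp) in TBT, and from 16.0% (Tgfb1) to 37.6% (Selp) in vehicle, over the 9 tested genes. Among the other 6 TBT animals it ran from 10.6% (Tgfb1) to 23.2% (Pf4), below the vehicle value for 9 of 9 genes. Only TBT lost its extreme animals, while vehicle 3 was kept, so a smaller spread in TBT is partly built in. The same share over all tested genes was not counted. These differences in spread were not tested. TBT 2 and TBT 8 were the 2 highest of 15 libraries for 9 of 9 cargo genes, beside 17.4% of all tested genes. Vehicle 3 was the lowest vehicle animal for 9 of 9, beside 15.2% of all. These patterns were noticed in the same data, and they describe these libraries.

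Leaving out TBT 2 and TBT 8, which were chosen because they stood apart in these very transcripts, gave all 9 tested cargo genes a negative fold change. Removing the highest animals from TBT alone lowers its values, and the p-values in this paragraph do not account for that choice. They describe the remaining animals and cannot be read as tests. The 6 remaining TBT animals were then lower than vehicle in 9 of 9, beside 47.1% of all tested genes, and 5 of 9 were called lower, beside 2.54% of the 13645 tested genes called lower and 3.39% called in either direction. The 5 were Ppbp (log2 fold change −0.81, SE 0.22, adjusted p = 0.0456), Vwf (−0.84, SE 0.21, adjusted p = 0.0425), Selp (−0.93, SE 0.23, adjusted p = 0.0430), Clu (−0.97, SE 0.20, adjusted p = 0.0354) and Tgfb1 (−0.44, SE 0.11, adjusted p = 0.0425), all by edgeR. Pf4 (−1.01, adjusted p = 0.0517), F13a1 (−0.58, adjusted p = 0.0541), Mmrn1 (−0.75, adjusted p = 0.0704) and Thbs1 (−0.61, adjusted p = 0.0925) did not pass in that edgeR fit. At an unadjusted p under 0.05, 9 of 9 were lower, beside 11.3% of all tested genes. With vehicle 6 left out as well, all 9 log2 fold changes stayed below 0 (−0.40 to −0.88), beside 47.2% of all tested genes, and 0 of 9 passed (edgeR adjusted p from 0.0666 to 0.194), beside 0.0515% of all tested genes called; at an unadjusted p under 0.05 it was 9 of 9 lower, beside 9.96% of all. DESeq2 and limma-voom were not run without these libraries.

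**Figure D3:**
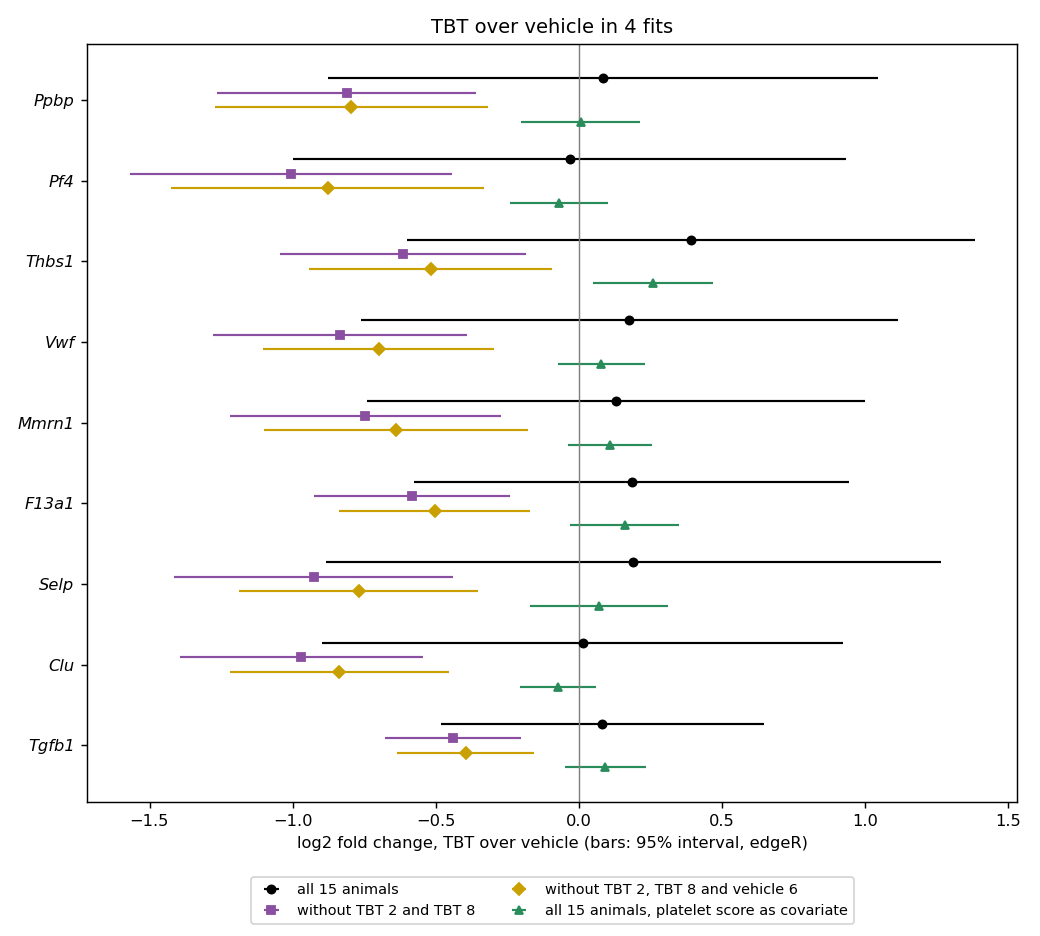
Log2 fold change of the 9 tested cargo genes, TBT over vehicle, with 95% intervals from edgeR, in 4 fits. With all 15 animals every interval covers 0, without TBT 2 and TBT 8 all 9 values lie at −0.44 or lower, and with the level of other platelet transcripts in the model they lie between −0.07 and 0.26.

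The height of TBT 2 and TBT 8 depended on the scale. Among CPM of all counts, with no scaling factor, they were the 2 highest libraries for 2 of 9 cargo genes (Vwf and Thbs1), beside 0.868% of all tested genes. Vehicle 3 remained the lowest vehicle animal for 8 of 9, beside 4.18% of all. Ppbp had 3353 CPM of all counts in TBT 2 and 4330 in TBT 8, while the highest vehicle animal had 4188. On this scale the means of Ppbp were 2832 ± 909 in TBT and 3192 ± 723 in vehicle (SD, n = 8 and 7), and those of Clu were 378 ± 127 in TBT and 453 ± 80.7 in vehicle. Thbs1 was the exception, with 2171 ± 738 in TBT and 2060 ± 332 in vehicle. None of these differences passed the edgeR fit without scaling factors (adjusted p = 0.9999 for each), in which the median over all genes was 0.14 on the log2 scale.

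A ratio of counts within a library needs no scaling. Per count of the 15 platelet markers, the cargo transcripts varied less than on scaled CPM. The highest library was 1.22 times the lowest for Clu, 1.24 times for Vwf and 1.26 times for Mmrn1. It was 2.12 times for Tgfb1, the widest of the 9 tested genes. On scaled CPM the same spans were 5.78 for Clu, 6.38 for Vwf, 6.24 for Mmrn1 and 3.02 for Tgfb1. On CPM of all counts F13a1 spanned 1.88 and Tgfb1 1.69, narrower than by the ratio (1.93 and 2.12). The other tested genes spanned less by the ratio on that scale too.

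By this ratio TBT 2 and TBT 8 were within the range of the other animals for Ppbp, Pf4, Vwf, Thbs1, Mmrn1, F13a1 and Clu; Selp was highest in TBT 8 and Tgfb1 lowest in TBT 2. Ppbp had a ratio of 0.668 ± 0.0523 in TBT and 0.672 ± 0.0988 in vehicle (SD, n = 8 and 7). Clu ran from 0.0849 over a median of 0.0881 to 0.0971 in TBT, and from 0.0875 over 0.0965 to 0.104 in vehicle, with 1 of 8 TBT animals above the vehicle median. Mmrn1 had the opposite lean, with lowest, median and highest ratios of 0.0992, 0.109 and 0.112 in TBT and 0.0899, 0.0992 and 0.113 in vehicle, with 8 of 8 TBT animals above the vehicle median. Of these, TBT 2 (0.09922) and TBT 8 (0.09928) lay almost at that median (0.09919). For Thbs1 the lowest, median and highest ratios were 0.390, 0.495 and 0.634 in TBT, and 0.388, 0.422 and 0.499 in vehicle, with 7 of 8 TBT animals above the vehicle median. The groups overlapped for each of these genes, and animals above the vehicle median were not counted over all tested genes.

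**Figure D4:**
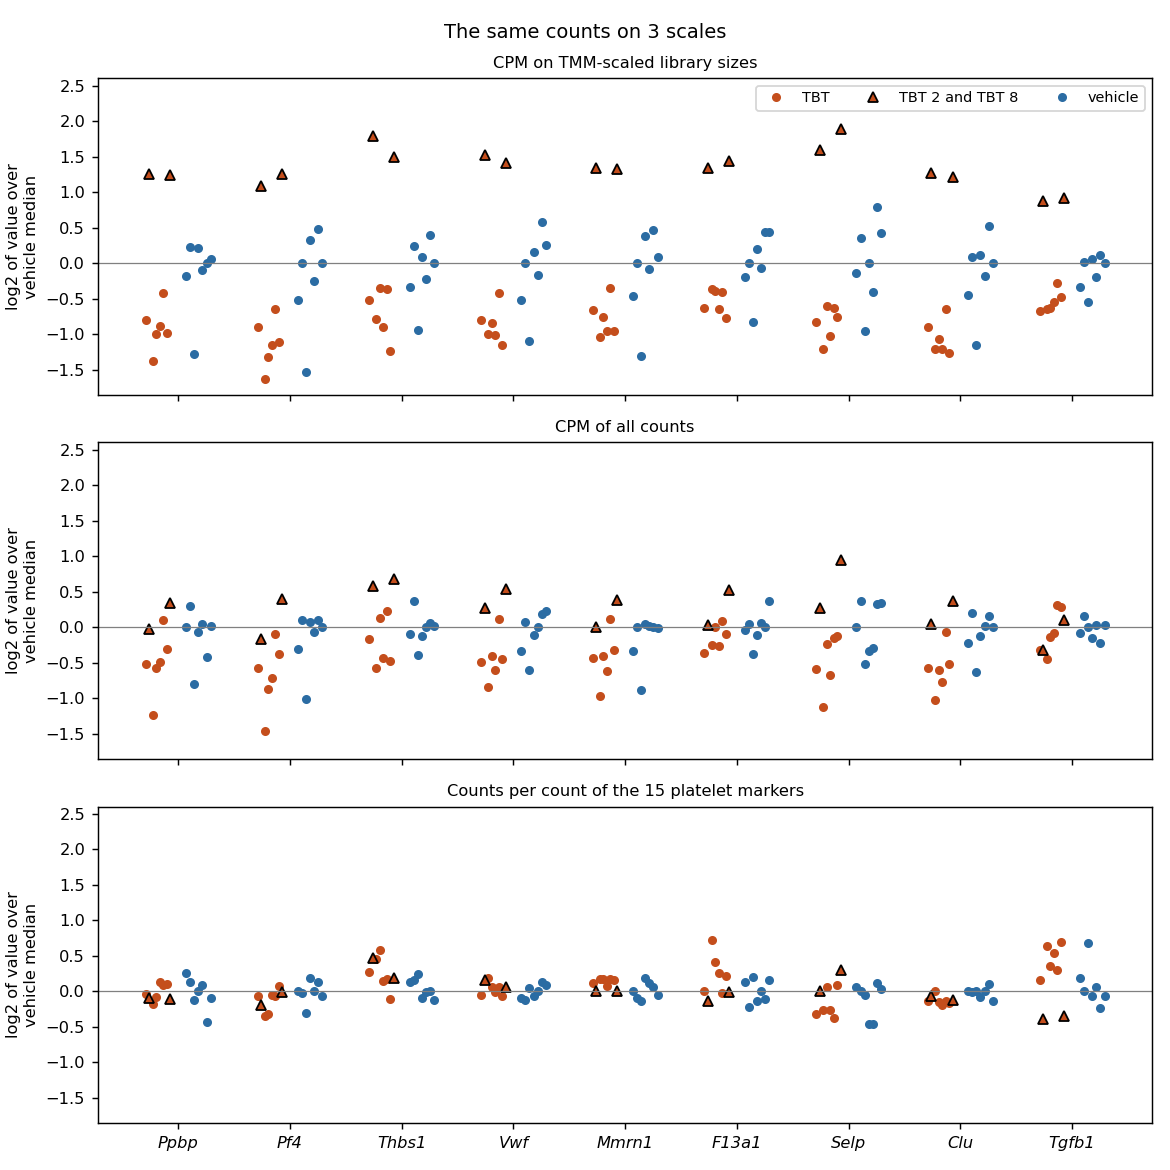
The 9 tested cargo transcripts in each animal on 3 scales, as log2 of the value over the vehicle median; TBT animals (n = 8) stand left of vehicle animals (n = 7), and triangles are TBT 2 and TBT 8. The triangles lie above all other animals on scaled CPM, above them for Vwf and Thbs1 on CPM of all counts, and mostly among them when counts are divided by those of 15 platelet markers.

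The difference at equal level of other platelet transcripts was tested by adding a platelet score to the edgeR model. The score is the mean log2 CPM of the 15 markers, each centred over the libraries; it was 1.59 in TBT 2 and 1.45 in TBT 8, −0.94 to −0.24 in the other TBT animals, and −0.88 (vehicle 3) to 0.67 (vehicle 6) in vehicle. Standard errors fell, for Ppbp to 0.10 on the log2 scale. Called were 0 of 9 cargo genes, beside 0.0150% of all 13364 tested genes, which is 2 genes (Cop1 and 9330162G02Rik, named after their values were seen). At an unadjusted p under 0.05 it was 1 of 9, Thbs1, which was higher in TBT, beside 13.2% of all tested genes in either direction and 7.98% higher in TBT. Thbs1 had a log2 fold change of 0.26 (SE 0.10, edgeR adjusted p = 0.278). Without TBT 2 and TBT 8 it was 0.12 (SE 0.15, edgeR adjusted p = 0.998), and 0.11 with vehicle 6 left out as well, and neither passed at an unadjusted p under 0.05. Without the filter on low counts 197 genes were called, and the standard error of Ppbp, at 0.10 with the filter, was 0.058. In that fit the adjusted p of Thbs1 was 0.0115 (edgeR) at the same fold change. That fit was the 1 setting of those tried in which a cargo gene was called with the score in the model. The other 8 ran from −0.07 (Clu and Pf4) to 0.16 (F13a1), with 95% half-widths of 0.13 to 0.24. F13a1 was at 0.020 without TBT 2 and TBT 8, and at 0.011 without those and vehicle 6. Mmrn1 rose instead, from 0.11 with all animals to 0.23 in both of those fits. In each, 1 of 9 cargo genes had an unadjusted p under 0.05, beside 591 and 700 of all tested genes. No cargo gene was called in them (smallest edgeR adjusted p = 0.998 and 0.961). With all animals the log2 fold change was above 0 for 7 of 9, beside 54.0% of all tested genes. The score shares its libraries and scaling factors with the cargo levels.

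Of the 9 tested cargo genes, 7 followed the score nearly in proportion, with slopes of 0.98 (Ppbp) to 1.14 (Selp) log2 units per unit of score, whereas F13a1 had a slope of 0.84 and Tgfb1 of 0.61. The median slope over all tested genes was −0.08. Tgfb1 per platelet marker count was lowest in TBT 2 (0.0343) and TBT 8 (0.0354) and highest in TBT 7 (0.0728), vehicle 3 (0.0720) and TBT 3 (0.0698). F13a1 was highest in TBT 3 (0.0764), against 0.0396 to 0.0614 in the others. The 10 monocyte markers were detected in every library, and their summed level moved with these ratios in part: it was 203 CPM of all counts in TBT 2 and 253 in TBT 8, 1231 in TBT 3, 898 in TBT 7 and 1306 in vehicle 3. It ran from 203 to 1231 in TBT and from 332 to 1306 in vehicle. TBT 4, TBT 5 and TBT 6 had sums above that of TBT 7 (964, 1005 and 904) but lower Tgfb1 ratios (0.0579, 0.0656 and 0.0555). Vehicle 3, with the highest sum, had an F13a1 ratio of 0.0531. Markers of other leukocytes also summed lowest in TBT 2 and TBT 8. In CPM of all counts these sums were 222 and 166 for neutrophils, 182 and 267 for B cells, and 28.5 and 27.7 for T cells. TBT 7, with the highest Tgfb1 ratio, had the highest B cell sum (1774), and TBT 3, with the highest F13a1 ratio, had 604. The part of monocytes or other leukocytes in the Tgfb1 and F13a1 levels was not tested.

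**Figure D5:**
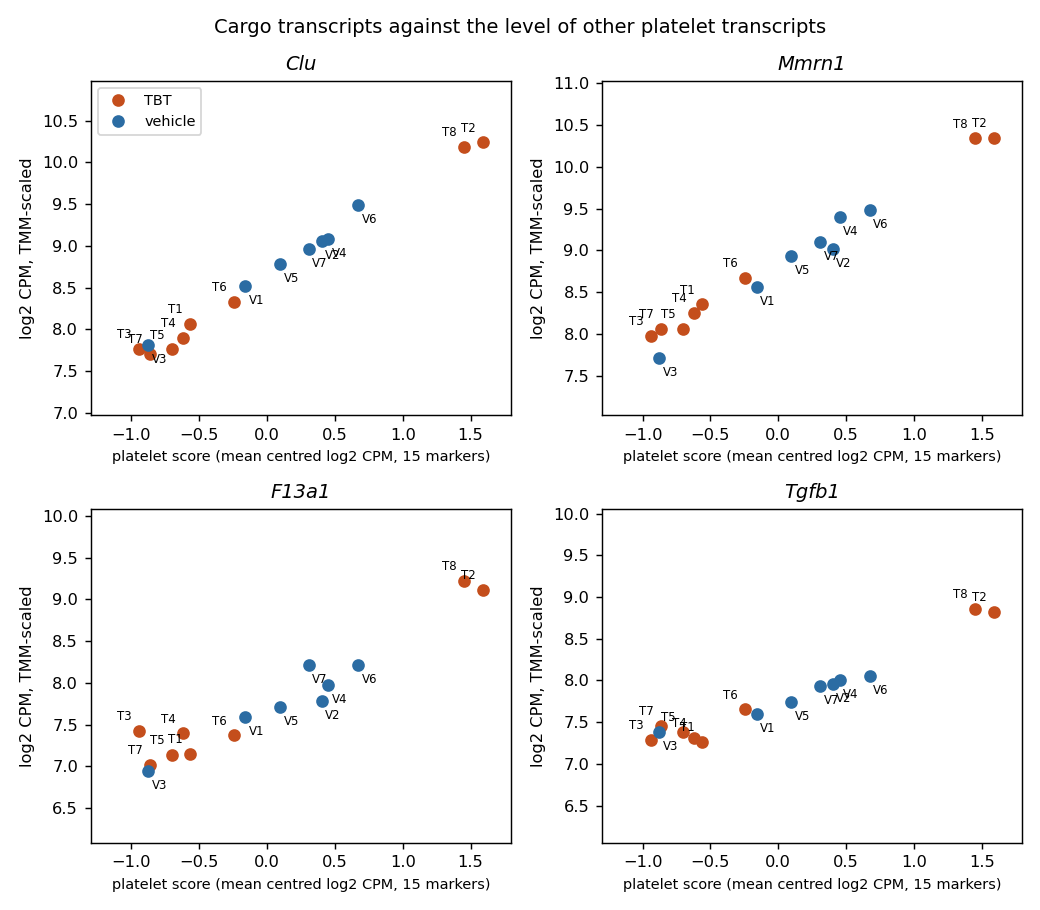
Log2 scaled CPM of Clu, Mmrn1, F13a1 and Tgfb1 against the platelet score in TBT (n = 8) and vehicle (n = 7) animals, named T1 to T8 and V1 to V7; each vertical axis spans the same number of log2 units. Clu and Mmrn1 climb in step with the score (slopes 1.04 and 1.00), F13a1 (0.84) and Tgfb1 (0.61) less steeply.

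Endothelium, which also makes Vwf and Selp, left few counts. Its 9 markers summed to 7.16 to 41.9 CPM of all counts in TBT and to 8.68 to 22.2 in vehicle, 7 to 9 of them were detected per library, and 4 of 9 passed the filter on low counts. On scaled CPM the sum was 35.2 in TBT 1, 33.0 in TBT 8 and 23.4 in TBT 2, against 5.50 to 8.46 in the other TBT animals and 6.38 to 23.5 in vehicle. Vwf on the same scale was at 365 in TBT 1, 1686 in TBT 8 and 1826 in TBT 2, against 286 to 472 in the other TBT animals. The part of endothelium in the Vwf and Selp levels was not tested.

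Other genes of the granule did not pass the test either. Of 25 further cargo genes, 19 were tested, 11 were above 0 and 8 below, beside 59.4% of all tested genes above 0, with a median log2 fold change of 0.07 beside 0.05 over all genes, and 0 were called at an adjusted p of at most 0.05 or at an unadjusted p under 0.05 (edgeR). The 3 with the smallest p were Aplp2, an amyloid precursor-like protein, with 39.7 ± 14.2 CPM in TBT and 34.1 ± 3.50 in vehicle (SD, n = 8 and 7); Vegfa, the vascular growth factor, with 2.05 ± 0.942 in TBT and 2.63 ± 1.46 in vehicle; and Cxcl5, a neutrophil chemokine, with 3.11 ± 3.21 in TBT and 3.39 ± 1.55 in vehicle. The other 6 did not pass the filter on low counts.

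All 15 genes of granule assembly and release were tested, with 10 above 0 and 5 below (59.4% above 0 over all tested genes), a median of 0.02 and 0 called, also at an unadjusted p under 0.05 (edgeR). Gfi1b, a transcription factor needed for alpha granule formation, had 4.75 ± 4.41 CPM in TBT and 3.19 ± 0.892 in vehicle (SD, n = 8 and 7). Vamp7, a membrane fusion protein, had 8.16 ± 2.58 in TBT and 7.04 ± 2.14 in vehicle, and Vps33b, a sorting protein without which alpha granules do not form, had 6.89 ± 0.917 in TBT and 6.46 ± 0.834 in vehicle. Of 17 genes for receptors, docking and processing of the cargo, 16 were tested (all but Adamts13), with 9 above 0 and 7 below (also beside 59.4%), a median of 0.09 and 0 called, also at an unadjusted p under 0.05 (edgeR). Tgfbr3, a TGF-β co-receptor, had 12.7 ± 4.49 CPM in TBT and 9.30 ± 4.71 in vehicle, Tgfbr1, the signalling receptor, averaged 51.6 in TBT and 44.2 in vehicle (log2 fold change 0.23, SE 0.15), and Cxcr3, a chemokine receptor that binds PF4 in humans, had 3.71 ± 1.14 in TBT and 4.60 ± 1.18 in vehicle.

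The transcripts most like each cargo gene across the 15 libraries were described by Spearman's rho of log2 scaled CPM among 7897 genes of at least 5 CPM on average. All genes of a library share its scaling factor, so rho of CPM of all counts is given second. Closest to Ppbp was the histone gene Hist1h2bc (0.996 and 0.954), followed by Nptn (0.986 and 0.932) and F2rl2 (0.986 and 0.936). Pf4 was closest to Adgrg1 (0.996 and 0.882), Atp2a3 (0.996 and 0.918) and Angpt1 (0.996 and 0.946), and Angpt1, a vascular growth factor, is alpha granule cargo itself. Vwf was closest to the integrin gene Itgb5 (0.996 and 0.90), then Rsu1 (0.993 and 0.896) and Slc24a3 (0.993 and 0.975). Mmrn1 was closest to Tspan2 (0.996 and 0.954), Clic4 (0.996 and 0.889) and Rac1 (0.996 and 0.907). Selp had Inf2 (0.971 and 0.821), the platelet glycoprotein Gp9 (0.968 and 0.861) and Slc16a12 (0.964 and 0.875).

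For other cargo genes some of the likeness was lost on CPM of all counts. Thbs1 was closest to Ywhaz (0.993 and 0.329), Hpse (0.989 and 0.836) and Slc2a3 (0.982 and 0.846). Clu was closest to Grap2 (0.993 and 0.425), then Ptgs1, the platelet cyclooxygenase (0.989 and 0.939), and Aldh2 (0.989 and 0.95). F13a1 was closest to Stradb (0.982 and 0.793), Auh (0.975 and 0.161) and Eipr1 (0.975 and 0.793). Tgfb1 was closest to Tm4sf19 (0.979 and 0.386), Sh2b3 (0.975 and 0.879) and Shroom4 (0.971 and 0.639).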

How the data were processed

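Per the labels' protocols, blood RNA was column-purified, DNase-treated and made into libraries with a stranded total RNA kit. Per the submitters' processing notes, Trim Galore, HISAT2, featureCounts and mm10 were used; the sources used here give no version, annotation release or strand setting. Counts per gene were deposited as whole numbers, not normalized; depth is in the report, and the number of counts limits precision. No 2 libraries of the same group agreed within counting noise. The mothers were exposed, and nothing says whether litters were shared. The p-values set group differences against the spread between these animals, and may be too small if some share a mother.

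The 10 genes, the lists and the alternatives were chosen with earlier results of these data known. The groups' counts were tested by edgeR 4.0.16 (R 4.3.3; filterByExpr by group, TMM, robust glmQLFit, glmQLFTest) over all 15 animals, without a covariate and with the platelet score. P-values were adjusted by Benjamini-Hochberg over all 13364 tested genes at 0.05, and the fits were tested on simulated data. Standard errors came from the F statistic, and log2 CPM used a prior count of 2. DESeq2 1.42.0 and limma 3.58.1 (voom with sample weights) were alternatives, as were other scalings, filters, left-out animals and a replicate block. A fit without scaling factors was added after seeing the data. Named were all 10 genes, from each list the 3 members of smallest p and the 3 genes outside the set most like each cargo gene. Coordinates and exon lengths are GENCODE M21's on GRCm38, promoters RefSeq's. Most same-numbered TBT and vehicle animals did not deviate together, so numbers were not used as pairs in the main fit. Number 3 was the clearest exception, with a deviation correlation of 0.51.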

Additional observations from a re-analysis of the deposited data

Results flagged for a closer look

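For each of the 10 cargo genes the lowest and highest animal of each group was set against the others on 3 scales, in 60 groups of values. An animal counted as standing apart where its gap to the nearest other animal exceeded Dixon's 95% critical value, which chance passes in about 1 in 20 groups. It did so 6 times. Ppbp in vehicle 3, the animal labelled with a tumor, was at 1445 scaled CPM, and the next vehicle animal was at 3078. Tgfb1 per platelet marker count was 0.0720 in vehicle 3, and 0.0512 in the next vehicle animal. F13a1 in TBT 8 was at 315 CPM of all counts, and the next TBT animal was at 232. Sparc stood apart in vehicle 7 on all 3 scales, at 2.63 scaled CPM, 2.49 CPM of all counts and 0.000460 per platelet marker count, from 15 counts in a library of 6.03 M. TBT 2 and TBT 8 were not picked out for any gene on scaled CPM, since they lie close to each other.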

How the results depend on the processing

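Every log2 fold change below is TBT over vehicle. In the model without the score, the fold changes in the order Ppbp, Vwf, Selp, Thbs1, F13a1, Clu, Mmrn1 and Tgfb1, all above 0 with all animals, turned negative in the following settings. Without TBT 2 and TBT 8 they were −0.81, −0.84, −0.93, −0.61, −0.58, −0.97, −0.75 and −0.44. Without TBT 2, TBT 8 and vehicle 6 they were −0.79, −0.70, −0.77, −0.52, −0.50, −0.84, −0.64 and −0.40. With limma-voom weights, which gave TBT 2 and TBT 8 the weights 0.261 and 0.237 against 0.719 to 2.35 in the others, they were −0.64, −0.59, −0.74, −0.39, −0.40, −0.76, −0.54 and −0.33. With the replicate block, to which TBT 8 adds nothing because vehicle has no number 8, they were −0.46, −0.45, −0.52, −0.25, −0.28, −0.59, −0.38 and −0.22. Without scaling factors they were −0.17 for Ppbp, −0.11 for Vwf, −0.11 for Selp, −0.022 for F13a1, −0.26 for Clu, −0.089 for Mmrn1 and −0.022 for Tgfb1. Clu also turned with upper-quartile scaling (−0.057) and without haemoglobin genes (−0.0091).

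With 1 animal left out at a time the ranges were −0.22 to 0.21 for Ppbp, −0.40 to 0.10 for Pf4, −0.18 to 0.31 for Vwf, −0.30 to 0.34 for Selp, −0.0091 to 0.50 for Thbs1, −0.11 to 0.28 for F13a1, −0.33 to 0.14 for Clu, −0.17 to 0.24 for Mmrn1 and −0.12 to 0.16 for Tgfb1, and no gene was called (0 to 0). Of all genes, 0 were called with all animals (846 at an unadjusted p under 0.05), 2 without a filter, 462 without TBT 2 and TBT 8, 7 without those and vehicle 6, 1 with the replicate block, 13 by DESeq2 and 22 by limma-voom. Of the cargo genes, 5 were called without TBT 2 and TBT 8 and 0 under every other alternative of this model. The p-values of the fit without TBT 2 and TBT 8 do not account for how these animals were chosen. Same-numbered animals had deviation correlations of −0.23 to 0.51, with 2 of 7 pairs over 0.1 and 1 of 7 TBT animals closest to its own number.

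With the platelet score, Ppbp was −0.019 without TBT 2 and TBT 8 and −0.020 with the score as log2 of the summed markers. Without TBT 2 and TBT 8, and without those and vehicle 6, Pf4 was 0.089 and 0.089, Selp −0.10 and −0.14, and Tgfb1 −0.069 and −0.069. With 1 animal left out, Ppbp ran from −0.047 to 0.053 and Selp from −0.022 to 0.11. The 2 genes called became 0 with upper-quartile scaling, without haemoglobin genes, without scaling factors, without TBT 2 and TBT 8 and without those and vehicle 6; they became 197 without a filter, when 1 cargo gene (Thbs1) was called, and 0 to 14 with 1 animal left out, 14 without vehicle 3. The causes were not tested.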
